A study of Homo sapiens with 2 samples.

Results

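The hairpins hsa-mir-191, hsa-mir-425, hsa-mir-423, hsa-mir-186, hsa-mir-361 and hsa-mir-345 (written below without the species prefix) give miRNAs that are found in most human tissues and are often taken as reference miRNAs, to which other miRNAs are normalised in quantitative PCR. Their levels, the balance of their arms and their evenness between replicate libraries were read in hCMEC/D3, an immortalised line of human endothelial cells from brain capillaries with which the blood-brain barrier is modelled in culture. Members were chosen by name, with earlier results of these data known. They are every row of the deposited table whose precursor is one of the 6 hairpins. These are 12 of 2363 rows, a 5p and a 3p arm from each. Small RNA was sequenced in 2 libraries of the line, which the labels call replicate 2 and replicate 8. There was no second group and no treatment, and nothing in the labels says whether the replicates came from separate cultures, so every difference below is between these libraries and may be technical. The labels mention no molecular identifiers, and intervals and tests on counts cover counting error only.

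A miRNA is cut from a hairpin precursor as a duplex of a 5p and a 3p strand, and usually one strand is kept in the Argonaute protein while the other is degraded. The kept strand finds messenger RNAs mainly through its seed, bases 2 to 8. A reference miRNA is useful only if its level stays even between samples, so that changes in other miRNAs can be read against it. miRNAs cut from one primary transcript can still differ in level, since cutting and decay act on each hairpin and strand.

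After repeated rows were reduced to 1 per mature name, replicate 2 held 2721287 counts and replicate 8 held 2727675, over 2042 mature names. The label of the line was checked against marker miRNAs. The endothelial miR-126-3p was the most abundant name in both libraries, with 297696 and 313837 counts. Of the blood miRNAs, miR-223-3p and miR-142-3p had none and miR-451a had 43 and 19. The neuronal miR-124-3p had 3 and 1. The mural miRNA miR-143-3p had 2000 and 871 counts and miR-145-5p had 271 and 200. The epithelial miR-200c-3p had 118 and 85 and miR-205-5p had 15 and 0. The hepatocyte miRNA miR-122-5p had 639 and 688. The part of other cell types in the values below was not tested.

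Of the 12 member arms, 10 have a mature sequence in RefSeq (GRCh38.p14 table). miR-425-5p and miR-186-5p have none there. The sequences of the arms of mir-191, mir-423, mir-361 and mir-345 are shown because the results turn on which arm of a hairpin is counted, and the capitals mark the seed.
miR-191-5p: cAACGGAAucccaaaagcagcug
miR-191-3p: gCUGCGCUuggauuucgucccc
miR-423-5p: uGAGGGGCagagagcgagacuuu
miR-423-3p: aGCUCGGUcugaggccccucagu
miR-361-5p: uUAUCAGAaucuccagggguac
miR-361-3p: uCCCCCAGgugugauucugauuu
miR-345-5p: gCUGACUCcuaguccagggcuc
miR-345-3p: gCCCUGAAcgaggggucuggag
No 2 of the 10 arms share a seed. Their first bases differ: of the more abundant arms of the 4 hairpins shown, miR-191-5p begins with C, miR-423-3p with A, miR-361-3p with U and miR-345-5p with G. Among the 435 detected names of the table that match RefSeq, 42.3% begin with U. Of the 10 seeds, the one of miR-423-5p was the only one found in another RefSeq mature miRNA, miR-3184-5p, whose sequence was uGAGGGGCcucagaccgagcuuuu. Of the table's 2042 names, 1716 matched RefSeq by name, so seeds of the others were not compared.

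For mir-361 the whole hairpin is given, with both arms in capitals, because its 2 arms behaved differently between the libraries. For mir-186 and mir-425 the hairpins are given with the 3p arm alone in capitals.
mir-361: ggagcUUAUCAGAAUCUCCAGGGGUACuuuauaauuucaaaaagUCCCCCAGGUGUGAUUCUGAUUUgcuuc
mir-186: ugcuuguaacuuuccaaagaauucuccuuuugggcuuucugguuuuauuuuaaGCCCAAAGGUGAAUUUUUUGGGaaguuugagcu
mir-425: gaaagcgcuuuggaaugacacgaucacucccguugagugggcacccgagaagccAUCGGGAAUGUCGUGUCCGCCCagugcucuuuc
In mir-361 the 5p arm takes bases 6 to 27 and the 3p arm bases 45 to 67 of 72.

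The hairpin genes lie on 5 chromosomes. Positions are those of the GENCODE annotation on GRCh37, the build that the submitters' processing notes name as hg19, and the genome sequence there was identical to the RefSeq hairpin for all 6. MIR191 lies on chromosome 3 at 49058051 to 49058142 and MIR425 at 49057581 to 49057667, both on the minus strand, with 383 bases between them. Both are intronic in DALRD3: none of the 4 DALRD3 transcripts that span them has an exon there. MIR186 is intronic in ZRANB2, a splicing factor gene, on chromosome 1 at 71533314 to 71533399 (minus strand). MIR361 is intronic in CHM, the gene of a Rab escort protein, on chromosome X at 85158641 to 85158712 (minus strand). MIR423 lies on chromosome 17 at 28444097 to 28444190 (plus strand) within NSRP1, where 1 of the 12 NSRP1 transcripts that span it has an exon. MIR345 lies on chromosome 14 at 100774196 to 100774293 (plus strand), outside coding genes on its strand. The nearest coding gene was SLC25A29, on the opposite strand, 1312 bases away.

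All 6 hairpins were expressed, and together their rows held 7.17% ± 0.808 of all counts (SD, n = 2). Their share was 7.74% in replicate 2, with a 95% Wilson interval from 7.71 to 7.77, and 6.60% in replicate 8, from 6.57 to 6.63. The greater part came from mir-423, which supplied 56.4% of the members' counts in replicate 2 and 58.5% in replicate 8. Next was mir-191, with 24.7% and 22.3%, and then mir-361, with 10.9% and 9.88%. The hairpins mir-186, mir-425 and mir-345 supplied under 5% each.

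Levels are given in CPM (counts scaled to the same library total) and compare different miRNAs only roughly, since adaptor ligation favours some sequences. The most abundant member was miR-423-3p, with 75206 counts (27636 CPM) in replicate 2 and 69477 counts (25471 CPM) in replicate 8, a mean of 26554 ± 1531 CPM (SD, n = 2). It ranked 6 among all names in replicate 2 and 10 in replicate 8. The other arm, miR-423-5p, had 43614 and 35828 counts, a mean of 14581 ± 2045 CPM. Both arms of this hairpin stood among the 18 most abundant names of the mean profile.

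miR-191-5p, a miRNA often used as a reference in plasma and tumour studies, had 51938 counts (19086 CPM) in replicate 2 and 40002 (14665 CPM) in replicate 8, a mean of 16876 ± 3126 CPM. It was the second of the leading arms, the arm of each hairpin with the higher mean count. Its level in replicate 8 was lower than in replicate 2, and its range overlapped those of miR-26a-5p above it and miR-125a-5p below it in the mean order. The third leading arm was miR-361-3p, with 21824 counts (8020 CPM) and 16680 counts (6115 CPM), a mean of 7067 ± 1347 CPM. Its range likewise overlapped those of its neighbours in that order, miR-125b-5p and miR-23a-3p.

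The remaining leading arms were lower. For miR-186-5p the counts were 7628 and 7273, a mean of 2735 ± 96.7 CPM. For miR-425-5p, whose hairpin neighbours that of miR-191-5p, they were 6762 and 6893, a mean of 2506 ± 29.8 CPM. The lowest leading arm was miR-345-5p, with 1870 and 1999 counts, a mean of 710.0 ± 32.3 CPM and close to the endothelial miR-126-5p at 693.7 ± 21.9 CPM. From miR-423-3p to miR-345-5p the leading arms spanned 40.2-fold in replicate 2 and 34.8-fold in replicate 8. The order of the 6 was the same in both libraries, and no 2 adjacent ranges overlapped, although miR-186-5p exceeded miR-425-5p by only 1.13-fold and 1.06-fold.

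**Figure D1:**
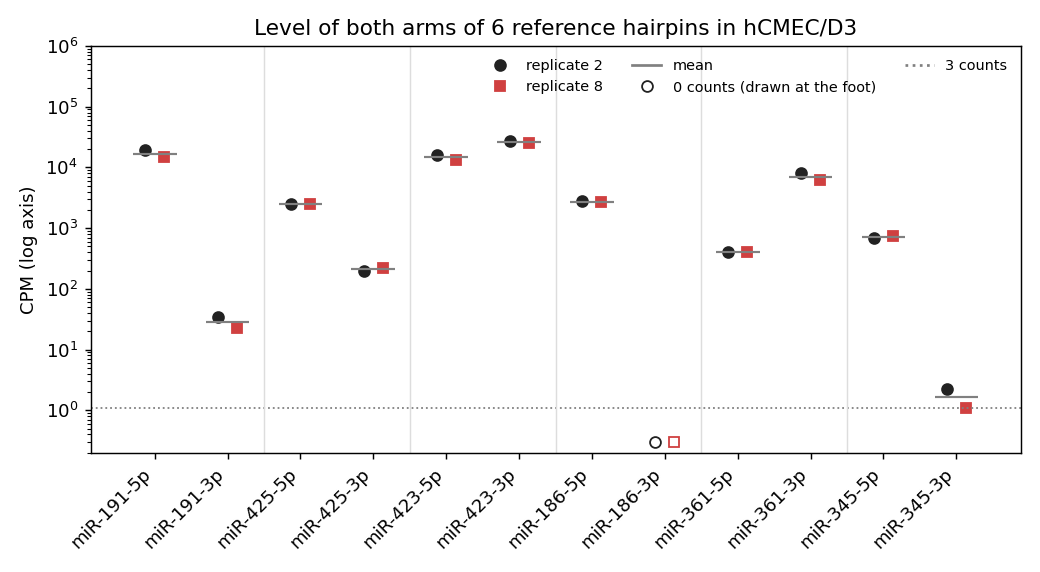
Level of each member arm in CPM on a log axis, with a circle for replicate 2, a square for replicate 8 and a bar for their mean. Open symbols at the foot stand for 0 counts and the dotted line for 3 counts. mir-423 has 2 high arms, and miR-186-3p is at 0 in both libraries.

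The minor arms covered a wide range. miR-361-5p had 1089 and 1091 counts (400.1 ± 0.144 CPM), miR-425-3p had 545 and 609 (212 ± 16.3 CPM) and miR-191-3p had 94 and 63 (28.8 ± 8.09 CPM). The lowest arm with any count was miR-345-3p, with 6 and 3. No count was found for miR-186-3p in either library, which allows a level of up to 1.10 CPM. With a detection limit of 10 counts in both libraries, 10 of the 12 arms were detected, beside 543 of all 2042 mature names.

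The balance of the 2 arms needs no scaling between libraries, since both arms are counted in the same library. In each library a single arm made up over 90% of the counts in 5 of the 6 hairpins. The same held for 144 of all 212 hairpins (67.9%) whose arms together had 50 or more counts per library. Among these 212, an arm listed under several hairpins was counted in each. The 5p arm was the major one in mir-191, mir-425, mir-186 and mir-345, and the 3p arm in mir-361 and mir-423. Strand selection was most one-sided in mir-186, where the 5p arm was at least 2543-fold higher than the 3p arm in replicate 2 and at least 2424-fold higher in replicate 8, taking the limit of 3 counts for the arm at 0. The 3p share of this hairpin was thus at most 0.0393% and 0.0412%.

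In mir-191 the 3p arm made 0.181% of both arms in replicate 2, with a 95% Wilson interval from 0.148 to 0.221, and 0.157% in replicate 8, from 0.123 to 0.201. These intervals overlap. In mir-345 the 3p share was 0.320% (0.147 to 0.696) and 0.150% (0.051 to 0.440), again with overlapping intervals. In mir-425 the 3p share was higher, 7.46% (6.88 to 8.08) and 8.12% (7.52 to 8.76), so the neighbouring hairpins mir-191 and mir-425 differed far more from each other in arm balance than either did between the libraries.

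The hairpin mir-423 was the only member in which neither arm dominated. Its 5p share was 36.71% in replicate 2 (36.43 to 36.98) and 34.02% in replicate 8 (33.74 to 34.31), and by the mean share of the less used arm it ranked 15 among the 212 hairpins. In mir-361 the 5p share was 4.75% (4.48 to 5.04) in replicate 2 and 6.14% (5.80 to 6.50) in replicate 8. A two-sided Fisher's exact test of the arm counts, adjusted by Benjamini-Hochberg over the 212 hairpins, found a difference between the libraries for these 2 of the 6 hairpins, where 18.9% of all hairpins passed. Among the 101 hairpins whose arms together had 1000 or more counts per library, 32.7% passed, so the members' count was near this background. The 5p share fell by 2.68 percentage points in mir-423 (Fisher's exact adjusted p = 4.5e-38) and was 1.39 points higher in replicate 8 in mir-361 (adjusted p = 1.5e-08). For mir-191, mir-425, mir-345 and mir-186 the Fisher's exact adjusted p-values were 0.778, 0.388, 0.659 and 1. The members' median absolute change was 0.415 percentage points, beside 0.758 over all 212 hairpins.

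**Figure D2:**
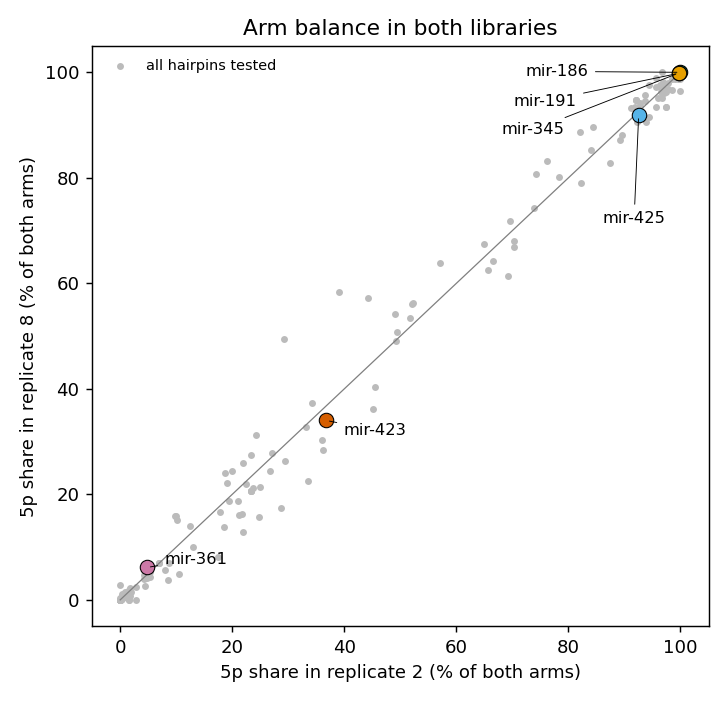
Share of the 5p arm in percent of both arms in replicate 2 (x axis) and replicate 8 (y axis), for 212 hairpins in grey and the 6 members in colour, with the line of equal shares. 4 members lie near 100% or above 90%, mir-361 near 5% and mir-423 between 34% and 37%.

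The hairpin mir-423 has an annotated antisense partner, mir-3184. RefSeq gives the strand of miR-3184-5p as opposite, and 21 consecutive bases of miR-423-3p are the reverse complement of it. miR-3184-5p had 2 and 4 counts and miR-3184-3p had none, against 75206 and 69477 for miR-423-3p. miR-423-5p, which has the same seed as miR-3184-5p, held over 99.9% of the counts of that seed in both libraries (99.995% and 99.989%).

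Evenness between the libraries was tested for each miRNA with a two-sided exact binomial test, which sets the share of its summed counts found in replicate 8 against the share the library totals give. The test ran over 695 names with at least 10 summed counts, with Benjamini-Hochberg adjustment over all of them and a threshold of 0.05. Of the 12 member arms 10 had enough counts, and 6 of these passed, where 34.2% of all names tested passed. With total counts as the scale all 6 were lower in replicate 8, where 23.5% of all names tested were called lower and 10.8% higher. The test passes more often where counts are high: among the 174 names with at least 1000 summed counts, 76.4% passed, and of the 9 member arms in that range 5 did.

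Among the leading arms miR-191-5p and miR-361-3p had the largest log2 ratios. miR-191-5p was lower in replicate 8 by a log2 ratio of -0.38 (95% exact interval -0.40 to -0.36), with an adjusted p too small to be represented. For miR-361-3p the log2 ratio was -0.39 (-0.42 to -0.36), with an adjusted p of 7.3e-153 by the exact binomial test. Of the 174 abundant names, 137 had a smaller absolute log2 ratio than miR-191-5p and 138 a smaller one than miR-361-3p, so both stood in the less even part of that range. With TMM these numbers were 127 and 130, and with DESeq2 size factors 112 and 117.

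The arms of mir-423 differed less. In miR-423-5p the ratio was -0.29 (-0.31 to -0.27, exact binomial adjusted p = 2.0e-170) and miR-423-3p one of -0.12 (-0.13 to -0.10, adjusted p = 7.9e-53). The difference was also small in miR-186-5p, at -0.07 (-0.12 to -0.03, exact binomial adjusted p = 0.0086). With few counts, miR-191-3p had the largest ratio of the tested members, -0.58 (-1.06 to -0.11, exact binomial adjusted p = 0.040).

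For 4 arms no difference was called. miR-361-5p had almost the same count in both libraries, a log2 ratio of -0.00074 (-0.12 to 0.12), and none of the 174 abundant names had a smaller one. This place rests on total counts: with TMM 47 of the 174 names were more even than miR-361-5p, and with DESeq2 size factors 58 were. For miR-425-5p the log2 ratio was 0.02 (-0.02 to 0.07) and 10 of the 174 names were more even, against 57 with TMM and 64 with DESeq2 size factors. For miR-345-5p it was 0.09 (0.00 to 0.18, exact binomial adjusted p = 0.117), and for miR-425-3p 0.16 (-0.01 to 0.33, adjusted p = 0.160).

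In size the differences were moderate. Only miR-191-3p, 1 of the 10 tested arms, lay more than 0.5 log2 units from 0, where 34.4% of all names tested and 10.9% of the 174 abundant names did. With TMM or DESeq2 size factors its ratio was -0.49 or -0.46, and no tested arm passed this size. With total counts as the scale, the median absolute log2 ratio was 0.14 over the 10 arms and 0.33 over all names tested. Of all names tested, 328 had under 100 summed counts, and their median was 0.53. These medians and those below were not taken with the other scales. Over the 9 abundant arms it was 0.12, beside 0.17 over the 174 abundant names. The median coefficient of variation of CPM (SD over mean, n = 2) was 5.77% over the 9 arms and 8.47% over the 174 names. Over the 60 names it was 6.15% and over the 114 names 9.48%, with the same arms above or below.

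**Figure D3:**
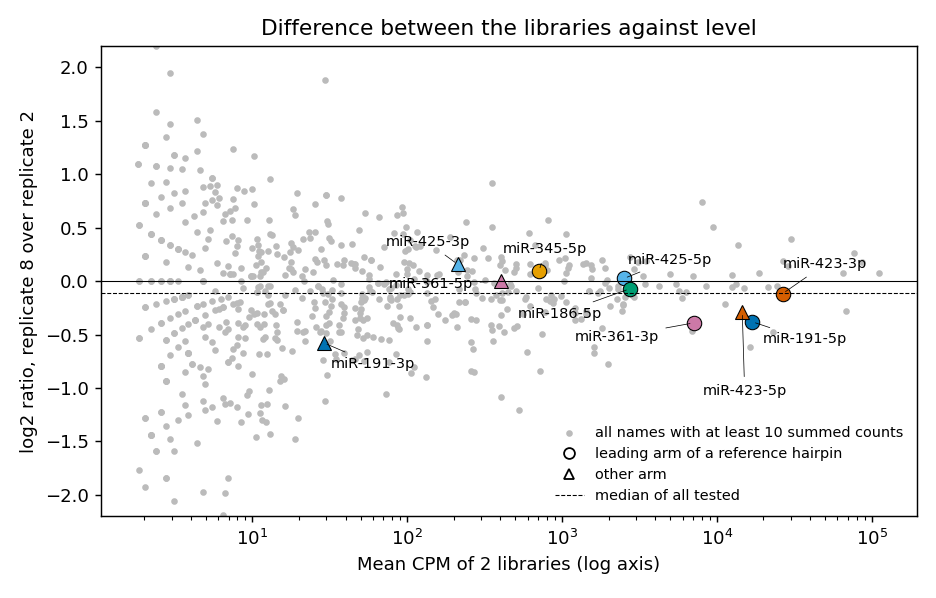
log2 ratio of replicate 8 over replicate 2 against the mean CPM (log axis) for 695 names in grey, with the leading arms of the 6 hairpins as circles and their other arms as triangles. 14 names lie beyond 2.2 log2 units and are not drawn. miR-191-5p, miR-361-3p and miR-423-5p lie below the dashed median of all names, while miR-425-5p, miR-345-5p and miR-361-5p lie at or above 0.

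A ratio of 2 reference miRNAs within a library does not depend on scaling, so the 15 ratios between the 6 leading arms were set side by side. The steadiest was that of miR-191-5p to miR-361-3p, 2.38 in replicate 2 and 2.40 in replicate 8, although each of these arms was lower in replicate 8. The ratio of miR-423-3p to miR-186-5p was also close, 9.86 and 9.55. The ratio that moved most was that of miR-361-3p to miR-345-5p, from 11.7 to 8.34, a shift of -0.48 log2 units. The ratio of miR-191-5p to miR-345-5p went from 27.8 to 20.0, a shift of -0.47.

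The neighbours miR-191-5p and miR-425-5p did not keep their ratio: it was 7.68 in replicate 2 and 5.80 in replicate 8, a shift of -0.40 log2 units. Among 15 pairs of hairpins within 1 kb on the same strand whose leading arms have a single row and at least 1000 summed counts, 10 kept their ratio more closely, and the median shift was 0.34. Some of these pairs share a hairpin.

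Over the 15 ratios of the leading arms the median shift was 0.26 log2 units and the largest 0.48. Over all 15051 pairs of the 174 abundant names the median was 0.27, and 23.5% of the pairs moved by more than 0.5. The median of the reference arms was therefore near that of any abundant pair, while none of the 15 exceeded 0.5. Averaged over its 5 ratios, the shift was smallest for miR-186-5p and miR-423-3p (0.19 each), followed by miR-425-5p (0.23), miR-345-5p (0.28), miR-191-5p (0.29) and miR-361-3p (0.30).

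**Figure D4:**
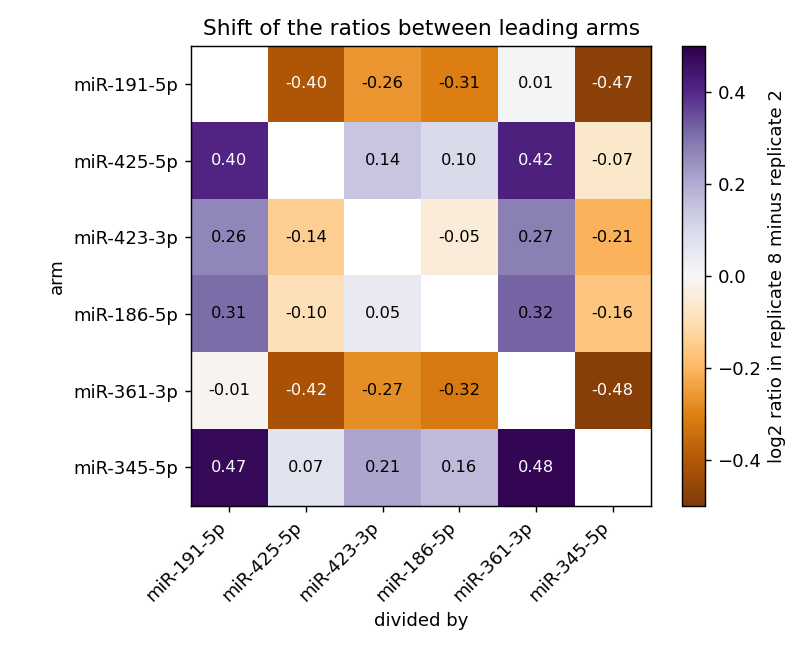
Shift of the log2 ratio between each pair of leading arms, replicate 8 minus replicate 2, with the arm in the row divided by the arm in the column. The shift of miR-191-5p against miR-361-3p is 0.01 and that of miR-361-3p against miR-345-5p is -0.48.

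Because these arms serve as normalisers, their geometric mean was also taken as a scale. By the 6 leading arms replicate 8 stood at -0.14 log2 units relative to replicate 2, whereas by total counts it stood at 0.00, by TMM (edgeR's trimmed mean of M values) at -0.08 and by DESeq2 size factors at -0.11. The scale from the 6 arms thus raised every log2 ratio by 0.14, TMM by 0.09 and DESeq2 size factors by 0.11.

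Directions of the members depended on this choice. The mean of the leading arms is set by these arms themselves, so on that scale some must lie above 0 and others below. With TMM 7 of the 10 tested arms passed the exact binomial test, 3 higher and 4 lower in replicate 8. Of all names 32.2% passed with TMM. With DESeq2 size factors 6 arms passed, 3 higher and 3 lower, where 31.9% of all names passed. Of the 10 arms 9 had at least 1000 summed counts, a range in which 76.4% of names passed with total counts. That share was not taken for the other scales. miR-191-5p, miR-361-3p and miR-423-5p were lower under total counts, TMM, DESeq2 size factors and the mean of the leading arms, with log2 ratios that ranged from -0.38 to -0.24, from -0.39 to -0.25 and from -0.29 to -0.15. miR-425-5p, miR-425-3p and miR-345-5p passed as higher under each of these scales except total counts. The ratio of miR-186-5p turned from -0.07, which passed as lower, to 0.01 with TMM and 0.04 with DESeq2 size factors, where it did not pass, and to 0.07 with the mean of the leading arms, where it passed as higher (exact binomial adjusted p = 0.014). The ratio of miR-423-3p went from -0.12 to -0.03 with TMM and to -0.0042 with DESeq2 size factors, where it no longer passed. With the mean of the leading arms it was 0.02 and passed as higher (exact binomial adjusted p = 0.0095). miR-191-3p no longer passed with TMM (exact binomial adjusted p = 0.104) or DESeq2 size factors (adjusted p = 0.122). With the mean of the leading arms as the scale, which the members themselves set, 8 of the 10 tested arms passed, 5 higher and 3 lower. Of all names 226 passed, 127 higher and 99 lower in replicate 8, against 238 passed, 75 higher and 163 lower, with total counts.

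**Figure D5:**
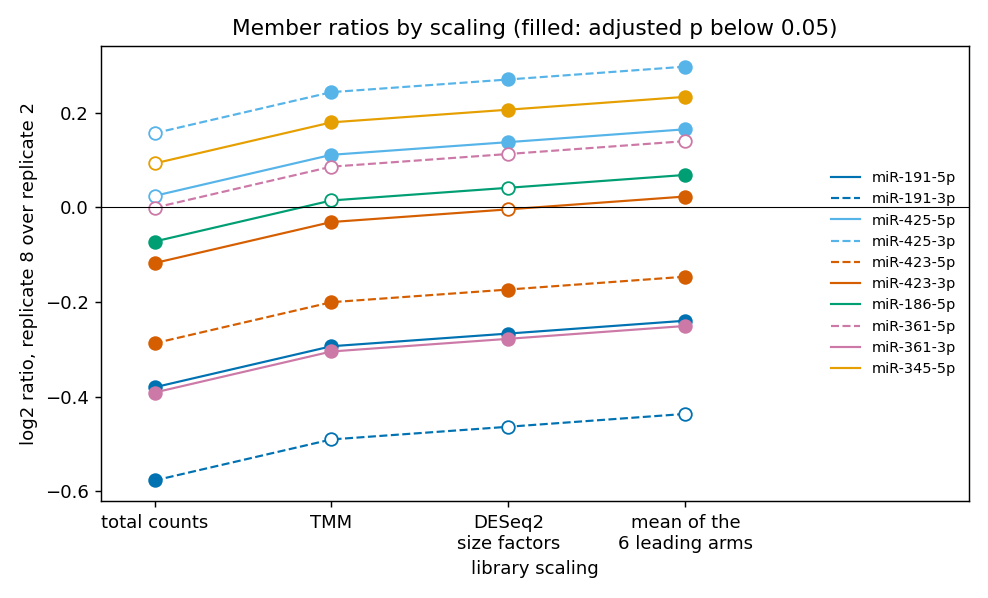
log2 ratio of replicate 8 over replicate 2 for the 10 tested member arms under 4 library scalings, with leading arms as solid lines, other arms dashed, and filled symbols for an adjusted p below 0.05 in the exact binomial test. miR-191-5p, miR-191-3p, miR-361-3p and miR-423-5p stay below 0 throughout, while miR-186-5p, miR-423-3p and miR-361-5p cross 0.

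A list of 12 other miRNAs often used as normalisers was read in the same way. By the exact binomial test with total counts as the scale 10 of the 12 passed, 2 higher and 8 lower in replicate 8, where 34.2% of all names passed. All 12 had at least 1000 summed counts, a range in which 76.4% of names passed, so their count was near that background. With TMM 6 passed (4 higher, 2 lower), where 32.2% of all names passed. DESeq2 size factors gave 7 (5 higher, 2 lower), where 31.9% passed. The share among abundant names was not taken for these 2 scales. With total counts the median absolute log2 ratio of the 12 miRNAs was 0.09, and all lay within 0.5 log2 units. miR-26b-5p, with 1273 and 1251 counts, and miR-16-5p, a common plasma reference, with 4144 and 4248, were the ones that did not pass with total counts. The largest ratios were -0.47 in miR-320a, -0.41 in miR-484 and 0.33 in let-7a-5p. miR-103a-3p had a ratio of -0.05, with 34783 and 33662 counts. As a scale, the geometric mean of this list put replicate 8 at -0.07 log2 units relative to replicate 2, between total counts and TMM. The ratios of its 66 pairs had a median shift of 0.20 log2 units, beside 0.26 for the 15 ratios of the leading arms. Their largest shift was 0.81, beside 0.48. Of the 66 pairs, 5 (7.58%) moved by more than 0.5, where none of the 15 did.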

How the data were processed

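Small RNA libraries of hCMEC/D3 were made by adaptor ligation and gel size selection, per the labels' protocols. The authors deposited one table of raw read counts and RPM values per mature name and precursor. The submitters' processing notes list CASAVA 1.9, FastQC, cutadapt, Bowtie 0.12.7 and hg19. The counter and miRBase release are not given in the sources used here. Where a mature name had several rows, the one with most reads was kept, except for arm balance, where each hairpin kept its own rows. Every member name had a single row. CPM used the totals of the 1 row kept per name. Exact binomial and Fisher's exact tests (scipy 1.17.1) were adjusted by Benjamini-Hochberg over all names or hairpins tested, and were tested on simulated data. The simulated counts held counting error alone and a known scale, so other variation between libraries was not covered. Log2 ratios had 0.5 counts added. TMM came from edgeR 4.0.16 and size factors from DESeq2 1.42.0, both on names with at least 10 summed counts. edgeR's quasi-likelihood test was not possible with 1 group. Named were all member arms, mir-3184, names sharing a seed, neighbours in rank and 12 other reference miRNAs. Members and lists were chosen with earlier results of these data known. Members given as examples of pair ratios were picked after their values were seen. Alternatives covered denominators, scaling, count filters, pseudocounts and leaving out libraries or hairpins.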

Additional observations from a re-analysis of the deposited data

How the results depend on the processing

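Over 8 summary results 38 values were recomputed, of which 32 stayed close to those reported and 6 moved. For 28 results on single arms or hairpins 112 values were recomputed. Of these, 79 stayed close, 20 moved, 4 reversed, 6 became stronger and 3 weaker. Those that moved were levels under other denominators. The reversed, stronger and weaker ones were ratios under TMM or DESeq2 size factors. The share of counts held by the members was 6.14% with all rows in the total or with repeated rows summed, 6.12% on the deposited RPM scale and 8.07% when miR-126-3p was left out of the total, shifts that follow from the denominator. It was 6.60% and 7.74% when either library was left out. With calls at 0.25 log2 units, 4 tested arms were past the limit, and at 1 log2 unit 0 were, as the looser and stricter limits imply. The ratio of miR-186-5p reversed to 0.015 with TMM and 0.041 with DESeq2 size factors, and that of miR-361-5p to 0.086 and 0.11, none of these passing the exact binomial test. These ratios are the reported ones plus the shift of the scale. The number of members that differed was 5 with no filter on low counts, from 6 to 7 under the other alternatives and 8 with the leading arms as the scale, which was added after seeing the data. The median shift of the pair ratios was between 0.19 and 0.31 when each hairpin was left out, and the scale from the leading arms between -0.18 and -0.09. Leaving out a library moves a mean of 2 values by less than its SD by construction, which covers 38 of all 150 recomputed values. Ratios and tests between the libraries have no value with 1 library. No paired analysis was possible because there is only 1 group. Depth limits the low arms most: miR-186-3p, miR-345-3p and miR-191-3p.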
